A study of Mus musculus with 36 samples.

Results

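The 5 genes examined carry the steps particular to gluconeogenesis: Pck1, G6pc, Fbp1, Fbp2 and Slc37a4. Of the 18193 genes that a single symbol named on the Affymetrix mouse genome array, they were read by the probe sets whose gene symbol in the platform's annotation was exactly one of these names, which gave 7 probe sets of 45037 tested. Pck1 had 3 probe sets, called main (1423439_at), second (1439617_s_at) and the third (1455209_at) by their level, and the others had 1 each (G6pc 1417880_at, Fbp1 1448470_at, Fbp2 1449088_at and Slc37a4 1417042_at). The probe sets were taken by symbol and not by a measured value, but the genes were chosen with earlier results of these data known.

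The 36 arrays came from 3 tissues, the liver, white fat (WAT, white adipose tissue) and brown fat (BAT), of 12 male ddY mice, an outbred stock, that arrived at an age of 5 weeks and were acclimated for 1 week. The 7 mice numbered 1 to 7 were given water by feeding tube (DW), and 5 mice, numbered 2, 4, 5, 6 and 7, were given a 1.8% solution of CAAM, an amino acid mixture with the make-up of casein. Both groups ate the same chow, were dosed once daily 5 times, lost access to food on the last morning, and died 4 h after their final dose. By the study's methods 2 further CAAM mice had been left out because of an abnormal liver, so that the CAAM group was selected by liver appearance. No such exclusion is given for the DW group, and whether its livers were judged in the same way is not stated. The depot of the WAT was not stated in the labels. Every array was 1 tissue of 1 mouse. Mice given a different mixture were not analysed here.

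The liver can make glucose from lactate, glycerol and amino acids, mostly by running glycolysis backwards, and the steps that glycolysis cannot reverse need enzymes of their own. Pck1 makes phosphoenolpyruvate from oxaloacetate, Fbp1 (the liver isozyme) and Fbp2 (the muscle isozyme) remove a phosphate from fructose 1,6-bisphosphate, Slc37a4 carries glucose 6-phosphate into the endoplasmic reticulum, and G6pc there releases free glucose. Glucagon through cAMP and glucocorticoids are known to raise transcription of Pck1 and G6pc in the liver, and insulin to lower it. In adipocytes Pck1 serves glyceroneogenesis, which supplies glycerol 3-phosphate for triglycerides.

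The promoters of 4 genes are shown as background, for the pairs described below, Pck1 and G6pc in liver and the neighbours Fbp1 and Fbp2 in WAT. Each is the 250 bases just before the transcript start in the direction of the gene, from RefSeq on GRCm38.p6, and all 5 genes had an entry, Slc37a4 with several starts. Capitals mark, on either strand, TTACGTCA (the cAMP response element of the Pck1 kind) in Pck1, TGTTTT (a loose core that forkhead factors can bind) and TATAAA (the TATA box) in G6pc, CCAAT in Fbp1 and CACGTG (the E box) in Fbp2. Left unmarked are CCAAT in G6pc and TGACG and TGTTTT in Fbp2. The stricter forkhead motif TGTTTAC and the palindromic cAMP element TGACGTCA were also searched and were in none of these promoters.
Pck1 promoter, chr2:173152823-173153072, + strand: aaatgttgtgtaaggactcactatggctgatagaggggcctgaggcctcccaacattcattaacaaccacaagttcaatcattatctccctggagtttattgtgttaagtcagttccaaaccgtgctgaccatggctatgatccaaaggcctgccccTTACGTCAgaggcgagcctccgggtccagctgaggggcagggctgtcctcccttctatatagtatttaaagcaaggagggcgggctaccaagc
G6pc promoter, chr11:101367466-101367715, + strand: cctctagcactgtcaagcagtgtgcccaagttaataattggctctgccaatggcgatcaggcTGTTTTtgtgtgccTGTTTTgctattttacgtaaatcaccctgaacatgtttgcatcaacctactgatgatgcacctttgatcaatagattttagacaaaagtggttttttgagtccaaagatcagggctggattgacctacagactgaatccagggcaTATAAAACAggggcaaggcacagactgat
Fbp1 promoter, chr13:62888283-62888532, - strand: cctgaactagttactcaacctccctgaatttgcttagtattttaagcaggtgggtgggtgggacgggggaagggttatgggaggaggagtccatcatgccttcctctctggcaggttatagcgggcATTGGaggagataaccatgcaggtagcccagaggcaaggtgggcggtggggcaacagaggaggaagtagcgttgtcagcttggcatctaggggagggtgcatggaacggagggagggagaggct
Fbp2 promoter, chr13:62858401-62858650, - strand: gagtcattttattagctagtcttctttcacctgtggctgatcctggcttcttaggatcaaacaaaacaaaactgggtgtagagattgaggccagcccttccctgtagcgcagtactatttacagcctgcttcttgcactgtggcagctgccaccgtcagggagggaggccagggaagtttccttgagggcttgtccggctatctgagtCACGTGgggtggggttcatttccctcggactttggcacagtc
Of 32817 promoters of this length, 0.445% held TTACGTCA, 19.8% held TGTTTT, 12.4% held TATAAA, 33.8% held CCAAT and 6.02% held CACGTG. The cAMP element of Pck1 lay 93 to 86 bases before the start and contains TGACG on the other strand. In G6pc the TATA box, 29 to 24 bases before the start, overlaps a TGTTTT on the other strand at 26 to 21 bases, and the other copies lay at 188 to 183 and 174 to 169 bases. The E box of Fbp2 was at 42 to 37 bases. A match is a description of the letters, and no binding was measured. Pck1 lies on chromosome 2 (173153073 to 173159274), G6pc on chromosome 11 (101367716 to 101377903), Slc37a4 on chromosome 9 (44396946 to 44402966), and Fbp2 (62836884 to 62858400) and Fbp1 (62864753 to 62888298) on chromosome 13 with 6352 bases between them.

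Values are distribution free weighted (DFW) scores. A score is a level on a log2-like scale, but the deviations between arrays of a tissue are shrunk by a factor that differs between probe sets, so that no fold change is given. Sizes are differences between group means in score units with the standard error (SE) of limma, or are standardised, which means divided by the within-group standard deviation (SD). Levels are compared for 1 probe set across tissues and not between probe sets. The median score of an array lay at 6.81 in liver, 6.92 in WAT and 6.78 in BAT, with ranges over the 12 arrays of 0.000345, 0.00596 and 0.00143, and whether the tissues were scored in 1 run is not known. Of the markers of hepatocytes, 6 of 6 were above the array median in liver, as were 5 of 5 for white adipocytes in WAT and 5 of 5 for brown adipocytes in BAT.

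G6pc, Fbp1 and Slc37a4 were higher in liver than in either fat, and Pck1 and Fbp2 were higher in fat. Pck1, by the main probe set, scored 11.3 ± 0.0176 (SD, n = 12) in liver, 12.5 ± 0.000526 in WAT and 13.1 ± 3.98e-05 in BAT. Its second probe set had the same order, with 8.96 ± 0.0448, 10.1 ± 0.00252 and 11.0 ± 0.000367. The third, which is dim, scored 6.11 in liver, 5.59 in WAT and 5.64 in BAT, below the array median in all 36 arrays, and its differences are those of a dim probe set. G6pc, whose product ends the pathway, scored 11.0 ± 0.00513 in liver, and its 6.50 in WAT and 6.43 in BAT were below the median of every array of those tissues. Fbp1 scored 13.9 ± 7.65e-07 in liver, 7.12 ± 0.100 in WAT and 6.74 ± 0.0271 in BAT. The BAT value was below the array median in 12 of 12 mice and the WAT value above it in 12 of 12. Slc37a4, the transporter that G6pc depends on, scored 12.1 ± 0.000140 in liver, 8.34 ± 0.00155 in WAT and 8.52 ± 0.000458 in BAT, all above the array medians.

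Fbp2 ran opposite to Fbp1 across the tissues. It scored 6.94 ± 4.27e-06 in liver, close to the array median, 7.18 ± 0.0153 in WAT and 8.74 ± 3.09e-05 in BAT. Genes of skeletal muscle, where Fbp2 is the main isozyme, varied widely between the BAT arrays, from 68.2 to 109 for the summed score of 10 genes, and were highest in DW mice 1, 3 and 7 and CAAM mouse 2. Against that score Fbp2 had a Pearson r of 0.214 and a Spearman rho of 0.455 over the 12 BAT arrays.

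The plot of scores by tissue shows these orders. For each of the 7 probe sets the 12 values of a tissue did not overlap those of another. The share of all probe sets without overlap was not counted. The median SD of all probe sets within a tissue was only 1.08e-05 in liver, 1.42e-05 in WAT and 7.38e-06 in BAT. With that share unknown, the lack of overlap is not read as a result about the members. In limma on differences within mice all 7 passed in all 3 pairs of tissues, as did 99.8% of all probe sets between liver and WAT, 99.9% between liver and BAT and 99.8% between WAT and BAT, so the test sets no member apart. The within-mouse difference between liver and WAT was 6.81 ± 0.0294 (SE) for Fbp1, 4.47 ± 0.00148 for G6pc and 3.77 ± 0.000430 for Slc37a4, and it was -1.19 ± 0.00428 for Pck1. The differences between WAT and BAT were smallest for the third Pck1 probe set (-0.0540 ± 5.25e-06) and G6pc (0.0713 ± 1.55e-05), and that of G6pc turned to -0.0634 when each array was centred on its median.

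**Figure D1:**
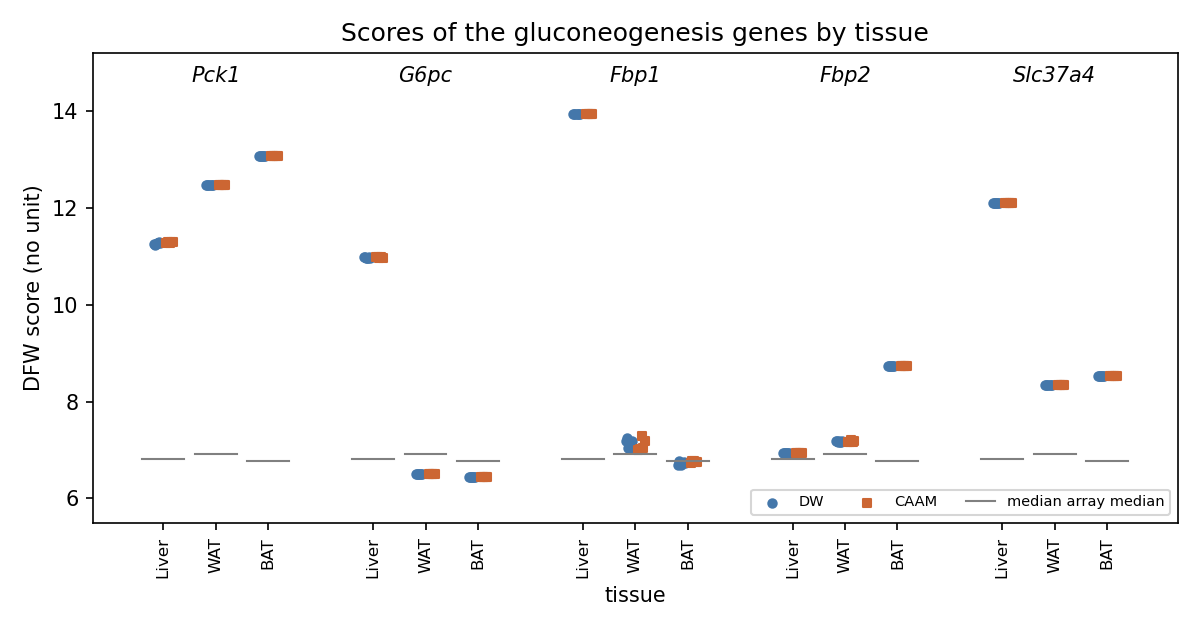
DFW score (no unit, y axis) of the brightest probe set of each gene in every array, by tissue (x axis), with DW mice as circles, CAAM mice as squares and the median array median of the tissue as a grey line. G6pc lies near 11.0 in liver and under the line in both fats, Fbp1 falls from 13.9 in liver to the line in BAT, and Pck1 climbs from 11.3 in liver to 13.1 in BAT.

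CAAM was compared with DW in each tissue to ask which genes respond to a casein-like amino acid load. The study's own test, rank products, was run over the 35 pairs of a CAAM and a DW mouse, and a probe set was called when the estimated share of false positives was under 0.05. It called 6 of the 21 member values (7 probe sets in 3 tissues), and limma, which weighs a difference against the spread of the same probe set, called 0 at an adjusted p under 0.05 in any tissue. Over all probe sets limma called 0% (0 of 45037) in each tissue, with 3047 (6.77%), 1784 (3.96%) and 2886 (6.41%) at an unadjusted p under 0.05 in liver, WAT and BAT. Of the members it gave 1 such p in WAT, for the third, dim Pck1 probe set (0.0481), and 1 in BAT, for Fbp1 (0.0388).

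Rank products order the raw differences, so probe sets with a wide spread are favoured. Among the 4504 probe sets that varied most, by SD, 26.6% were called in liver, 25.5% in WAT and 31.4% in BAT, against 2.67%, 2.61% and 3.18% over all. Of the 21 member values 12 were of such widely varying probe sets, and all 6 calls were among these 12. When the differences were first divided by the SD of the probe set, rank products called 0 of the 7 members in each tissue. The calls below are therefore given with every mouse's value and are not established changes.

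In liver the 2 bright probe sets of Pck1 were called higher after CAAM, beside 1.62% of all probe sets called higher. The main Pck1 probe set ranged from 11.241 to 11.295 in the DW mice, with a median of 11.270, and scored 11.277, 11.292, 11.276, 11.294 and 11.287 in CAAM mice 2, 4, 5, 6 and 7. All 5 CAAM mice were above the DW median, but DW mouse 6 was higher than each of them, so the groups overlap. The means were 11.285 ± 0.00829 (SD, n = 5) and 11.267 ± 0.0190 (n = 7), a difference of 0.0182 ± 0.00884 (SE) or 1.17 SD, with a limma p of 0.0650 and an adjusted p of 0.750.

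The second Pck1 probe set ranged from 8.877 to 9.019 in DW mice, median 8.942, and was 8.973, 8.992, 8.951, 9.028 and 9.009 in CAAM mice 2, 4, 5, 6 and 7. Again 5 of 5 CAAM mice were above the DW median and the groups overlapped. The difference was 0.0458 ± 0.0226 (SE), 1.15 SD, with a limma adjusted p of 0.753. The probe sets moved together over the 12 livers (r = 0.960, rho = 0.965), and both read the same gene, so they are 1 observation and not 2. Both were called higher in each of the 12 runs that left out 1 mouse, with differences of 0.0138 to 0.0228 and 0.0345 to 0.0582. The dim probe set, the third, differed by 2.01e-06 ± 3.01e-05 and was not called.

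G6pc was called higher in liver as well, with values that lean neither way. The DW mice ranged from 10.968 to 10.981, median 10.975, and CAAM mice 2, 4, 5, 6 and 7 scored 10.984, 10.982, 10.970, 10.976 and 10.971. Mice 2 and 4 were above every DW mouse, and 2 of the 5 were below the DW median. The difference was 0.00220 ± 0.00298 (SE), 0.418 SD, with a limma p of 0.476 and an adjusted p of 0.935. Without CAAM mouse 2 or 4 the difference was 0.000391 or 0.000788 and rank products called G6pc lower instead of higher, beside 1.18% of all probe sets called lower in all 12 mice. Without CAAM mouse 6 (0.00223) or DW mouse 5 (0.00111) it was not called, and without CAAM mouse 5 or 7 the difference rose to 0.00391 or 0.00367. After quantile normalization the difference was 0.00125 and the call was lost. G6pc did not vary with Pck1 over the 12 livers (r = -0.00331, rho = 0.0699).

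The other members were not called in liver. Slc37a4 ranged from 12.10166 to 12.10202 in DW mice, and 4 of 5 CAAM mice were below the DW median, with a difference of -0.000105 ± 7.68e-05 (SE), a limma p of 0.198 and an adjusted p of 0.842. Without CAAM mouse 6 (-0.000174) or DW mouse 3 (-0.000132) rank products called it lower. Fbp1 and Fbp2 differed by 6.21e-07 ± 9.10e-07 and 1.72e-06 ± 2.61e-06. In these livers 6 of 6 measured macrophage markers were called higher after CAAM, beside 1.62% of all probe sets. Their summed score was 56.129 to 56.185 in DW mice and 56.169 to 56.236 in CAAM mice. The main Pck1 probe set had an r of -0.0562 with that sum, G6pc -0.228, Fbp1 0.193 and Fbp2 0.332. Slc37a4 had an r of -0.452 and a rho of -0.629, and an r of -0.655 without the 2 mice farthest from the median. The part of macrophages in these values was not tested.

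**Figure D2:**
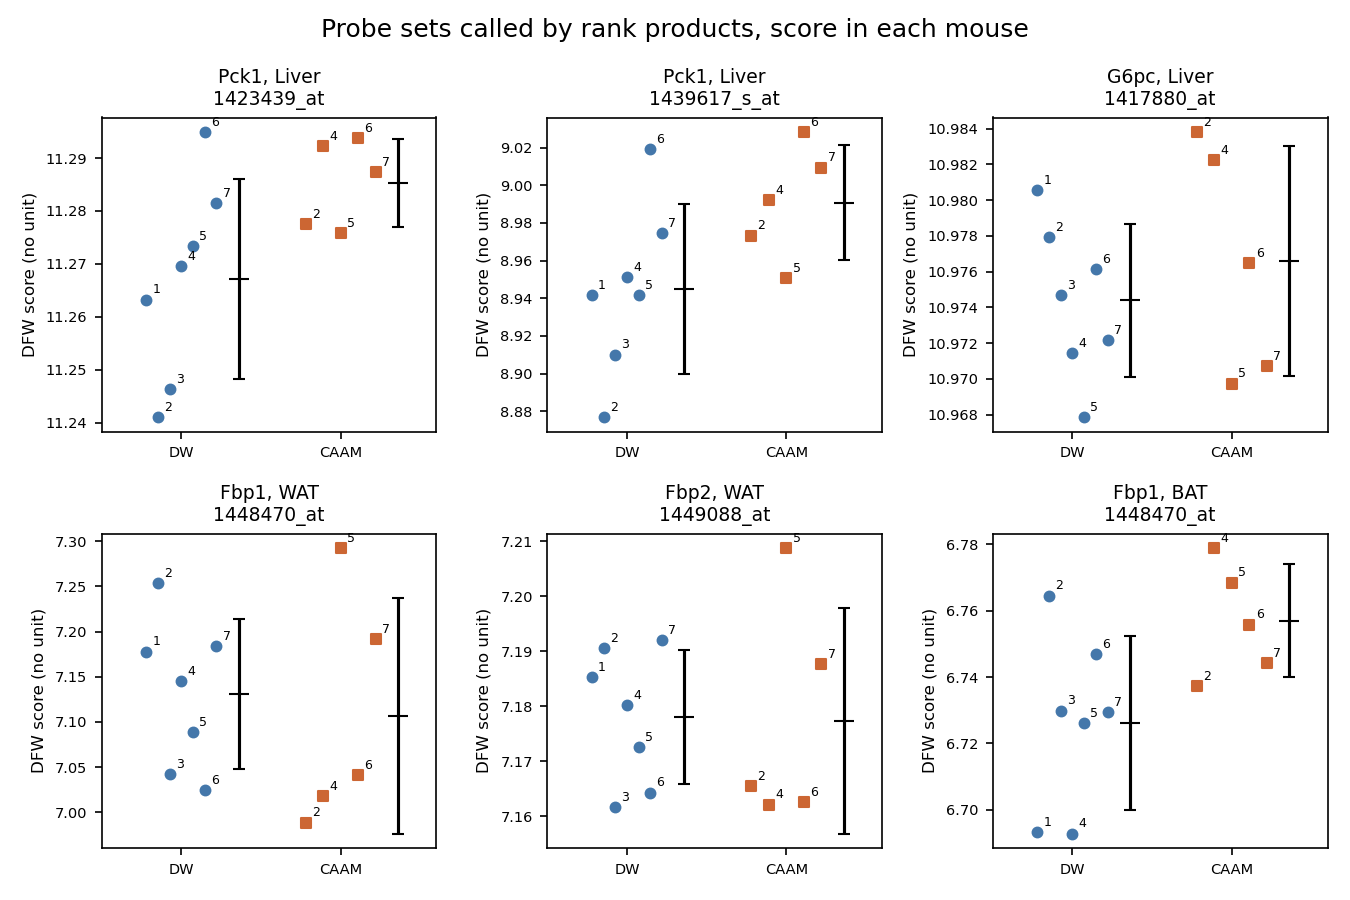
DFW score (no unit, y axis) in each mouse, numbered, for the 6 member values called by rank products, with DW mice as circles and CAAM mice as squares. Black marks are means and bars 1 SD. In every panel the groups overlap, and in WAT CAAM mouse 5 is the highest of all mice for both genes.

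In WAT rank products called Fbp1 and Fbp2 lower after CAAM, beside 1.94% of all probe sets called lower and 0.822% called higher, while the mean differences were small against the spread. Fbp1 ranged from 7.02 to 7.25 in DW mice, median 7.14, and was 6.99, 7.02, 7.29, 7.04 and 7.19 in CAAM mice 2, 4, 5, 6 and 7. The lowest and the highest of the 12 mice were both CAAM mice. The difference was -0.0243 ± 0.0597 (SE), -0.233 SD, with a limma p of 0.692 and an adjusted p of 0.9999. It became 0.00518 without CAAM mouse 2, -0.00222 without CAAM mouse 4, -0.00800 without CAAM mouse 6, -0.00376 without DW mouse 2 and -0.0155 without DW mouse 7. It became -0.0708 without CAAM mouse 5, -0.0456 without CAAM mouse 7, -0.0391 without DW mouse 3 and -0.0420 without DW mouse 6.

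Fbp2 ranged from 7.16 to 7.19 in DW mice, median 7.18, and was 7.17, 7.16, 7.21, 7.16 and 7.19 in CAAM mice 2, 4, 5, 6 and 7. Its difference was -0.000742 ± 0.00918 (SE), -0.0462 SD, with a limma p of 0.937. Each mouse left out moved it by over 1.5 times, between -0.00860 (without CAAM mouse 5) and 0.00306 (without CAAM mouse 4). It was above 0 without CAAM mouse 2, 4 or 6 or DW mouse 1, 2 or 7, and the call stayed only without CAAM mouse 5 or 7 or DW mouse 3 or 6.

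The spread in WAT was shared by the 2 genes. Over the 12 mice Fbp1 and Fbp2 had an r of 0.962 and a rho of 0.860, and 0.955 without the 2 mice farthest from the median of Fbp1. Only 0.104% of all probe sets had a higher r with Fbp1 in WAT. In liver and BAT the r of the pair was 0.0694 and 0.0791. DW mice 1, 2 and 7 and CAAM mice 5 and 7 were high for both genes, and DW mice 3 and 6 and CAAM mice 2, 4 and 6 low for both.

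Genes of multiciliated cells, which line parts of the reproductive and airway tracts, varied in the same way. The list was chosen after values were seen, since the probe sets most like Fbp1 in WAT included Rsph4a (r = 0.986) and Enkur (r = 0.985), both parts of motile cilia or sperm tails. Of its 13 genes 12 were measured, and 1 (Rsph1, 7.16) was above the WAT array median. Foxj1, the factor that defines these cells, scored 6.34 and was below it. The summed score of the 12 genes ran from 78.3 to 78.9 in DW mice and from 78.3 to 79.0 in CAAM mice. It had an r of 0.977 with Fbp1 and 0.982 with Fbp2. Since it holds Rsph4a and Enkur themselves, and Ccdc153 (r = 0.985 with Fbp2), a high r was set by the choice. The widest ranges in it were those of Ccdc153 (6.40 to 6.74) and Dynlrb2 (6.30 to 6.63). Rank products called 6 of the 12 lower and 0 higher, beside 1.94% and 0.822% of all probe sets. The mesothelium list, also chosen after values were seen, had 5 of 5 genes called lower in WAT and an r of -0.147 with Fbp1. Epididymis genes had an r of 0.302 and a rho of 0.594 with Fbp1, and their summed score reached 52.7 to 62.5 in DW mice 1 and 2 and CAAM mouse 6. Without these arrays and that of CAAM mouse 7, which also stood apart in male tract genes, the differences were 0.00302 for Fbp1, called lower although its mean was higher, and 0.00464 for Fbp2, not called. The part of other cell types in the WAT values was not tested, and in bulk tissue fewer cells of a type and less RNA per cell cannot be told apart.

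**Figure D3:**
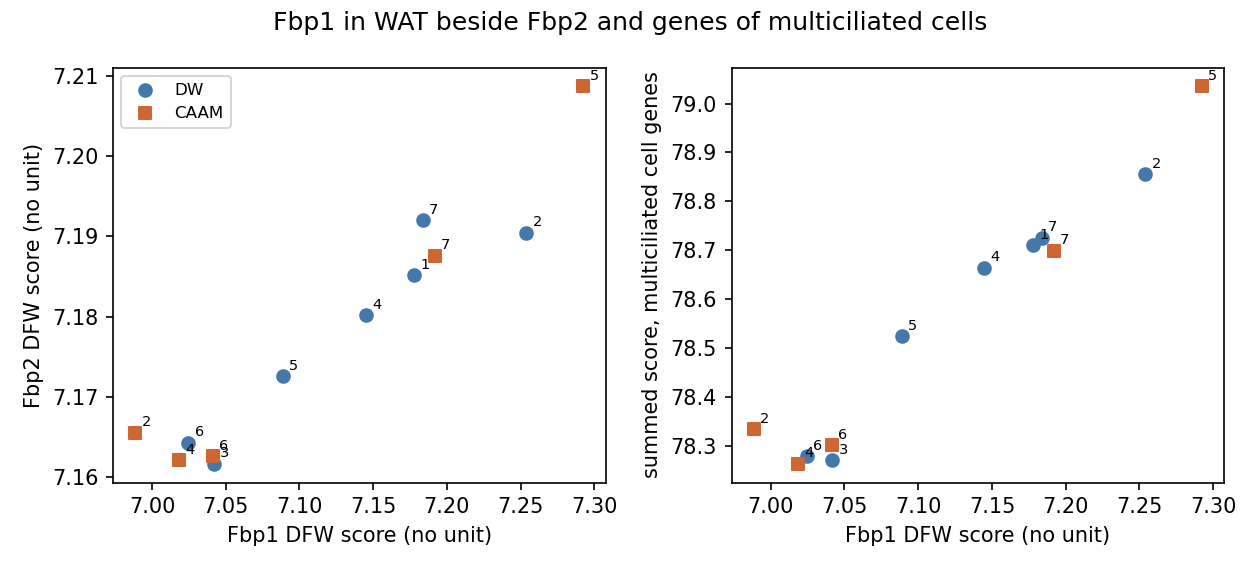
DFW score of Fbp1 in WAT (x axis, no unit) against that of Fbp2 (left) and against the summed score of 12 genes of multiciliated cells (right), 1 numbered point per mouse, DW as circles and CAAM as squares. The mice follow 1 line in both panels (r = 0.962 and 0.977), and CAAM mice lie at both ends of it. The 12 genes include some picked for their likeness to Fbp1, so the line on the right was set by the choice.

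Pck1, G6pc and Slc37a4 were not called in WAT. The main Pck1 probe set differed by -0.000162 ± 0.000311 (SE) with a limma p of 0.612, while 4 of 5 CAAM mice were above the DW median. G6pc, below the array medians, differed by 5.81e-05 ± 3.12e-05 with a limma p of 0.0907. Slc37a4 differed by 0.000698 ± 0.000903 with a limma p of 0.456, and it varied with Fbp1 at r = 0.721, or 0.565 without the 2 mice farthest from the median. With the summed marker scores its r was 0.750 for multiciliated cells, 0.601 for epididymis and 0.131 for skeletal muscle. It was -0.260 for macrophages, -0.462 for mesothelium and -0.513 for white adipocytes. Without the 2 farthest mice the r was 0.560 for multiciliated cells and 0.860 for epididymis. The part of these cell types was not tested.

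In BAT 1 member was called, Fbp1, higher after CAAM, beside 1.2% of all probe sets called higher and 2.07% called lower. Its scores ranged from 6.69 to 6.76 in DW mice, median 6.73, and were 6.74, 6.78, 6.77, 6.76 and 6.74 in CAAM mice 2, 4, 5, 6 and 7. All 5 CAAM mice were above the DW median, but DW mice 2 and 6 were above the lower CAAM mice. The difference was 0.0308 ± 0.0131 (SE), 1.34 SD, with a limma p of 0.0388 and an adjusted p of 0.756. It was called in each of 12 runs that left out 1 mouse, with differences of 0.0253 to 0.0372. The probe set is below the array median in all 12 BAT arrays, so the values are those of a dim signal.

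All 10 muscle genes of the list were called lower in BAT after CAAM, beside 2.07% of all probe sets. Their summed scores were 70.6 to 109 in DW mice and 68.2 to 104.5 in CAAM mice, and Fbp1 had an r of -0.480 with that sum. Without the 4 BAT arrays highest in muscle genes the Fbp1 difference was 0.0293 and the call stayed. In that run the second Pck1 probe set was called higher too (0.000526, against 0.000252 ± 0.000204 in all mice), as it was without DW mouse 7. G6pc and Fbp2 were below the DW median in 5 of 5 CAAM mice, with differences of -2.48e-06 ± 1.40e-06 and -2.68e-05 ± 1.65e-05, limma p of 0.104 and 0.133, and no call. Both turned positive when arrays were centred on their medians (0.000370 and 0.000346). Slc37a4 differed by -5.59e-05 ± 0.000273.

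**Figure D4:**
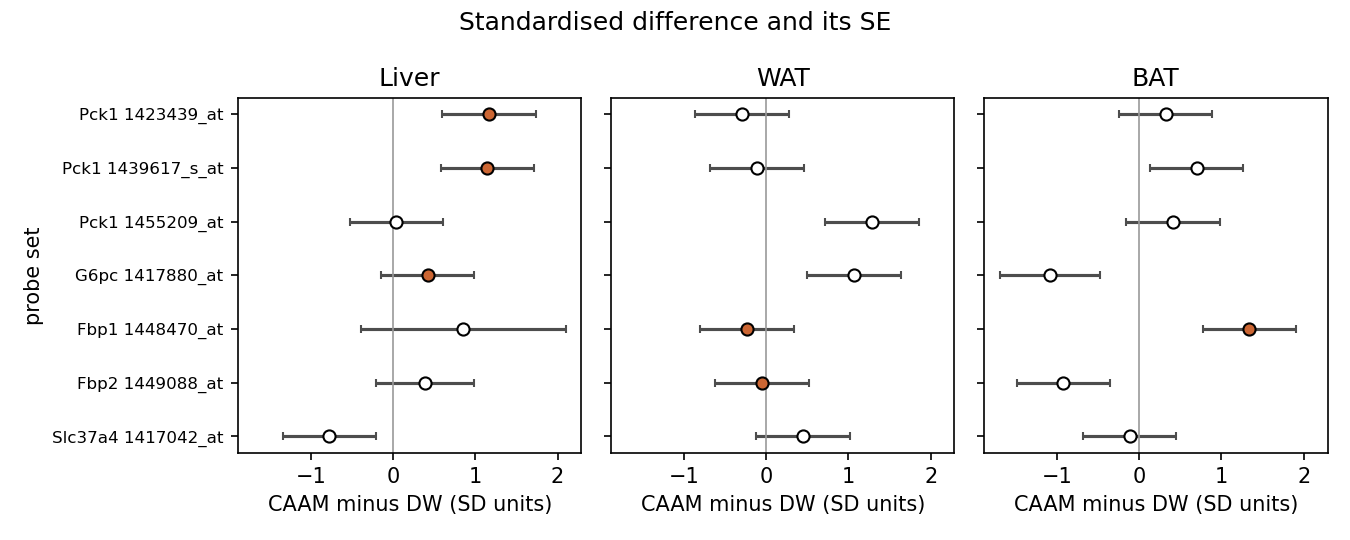
CAAM minus DW divided by the SD within groups (x axis, SD units) for the 7 probe sets (y axis) in each tissue. Bars are the limma SE on the same scale and filled points were called by rank products. Pck1 in liver (1.17 and 1.15) and Fbp1 in BAT (1.34) lie over 1 SD from 0, as do 3 values that were not called, the third Pck1 probe set in WAT (1.28) and G6pc in WAT (1.06) and BAT (-1.09), while the called G6pc in liver (0.418) and Fbp1 (-0.233) and Fbp2 (-0.0462) in WAT do not.

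Whether the effect of CAAM differed between tissues was tested in limma on the differences within mice. Of the 7 probe sets 0 passed in any pair of tissues, as did 0% of all, with 2425 (5.38%), 2787 (6.19%) and 2507 (5.57%) of 45037 at an unadjusted p under 0.05 for liver against WAT, liver against BAT and WAT against BAT. The effect on the main Pck1 probe set was 0.0183 ± 0.00868 (SE) larger in liver than in WAT, with a limma p of 0.0595 and an adjusted p of 0.896, and 0.0182 ± 0.00884 larger than in BAT, with an adjusted p of 0.817. The effect on Fbp1 in liver minus that in BAT was -0.0308 ± 0.0131, with a limma p of 0.0386 and an adjusted p of 0.795. Whether the tissues were scored in 1 run is not known, so shrinkage may be unequal between them, and these differences would also hold that.

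The bright probe sets of Pck1 varied alike in the 2 fats of a mouse. By the main probe set the scores in WAT and BAT had an r of 0.777 and a rho of 0.902 over the 12 mice, and 0.831 without the 2 mice farthest from the WAT median, and 2.44% of all probe sets had a higher r between these tissues, for which the median was 0.125. By the second the r was 0.586 and the rho 0.720, with 9.44% of probe sets higher. CAAM mouse 2 and DW mice 1 and 2 were low in both fats by both probe sets, and DW mouse 7 and CAAM mouse 7 were high. Between liver and WAT the r of the main probe set was 0.490 and between liver and BAT 0.391. For the third Pck1 probe set, G6pc, Fbp1, Fbp2 and Slc37a4 the r between WAT and BAT was -0.0319, -0.380, -0.0103, -0.156 and 0.288. In WAT the main and second Pck1 probe sets had an r of 0.803 and 0.774 with the summed score of 5 white adipocyte markers, but 0.123 and 0.150 in BAT. No correlation with the brown adipocyte markers was computed, so how Pck1 in BAT varied with markers of its own adipocytes is not shown. With the macrophage markers the r was 0.683 and 0.389 in BAT and -0.0222 and 0.101 in WAT. These are descriptions over 12 mice whose tissues share the treatment, the day of death and the mouse.

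**Figure D5:**
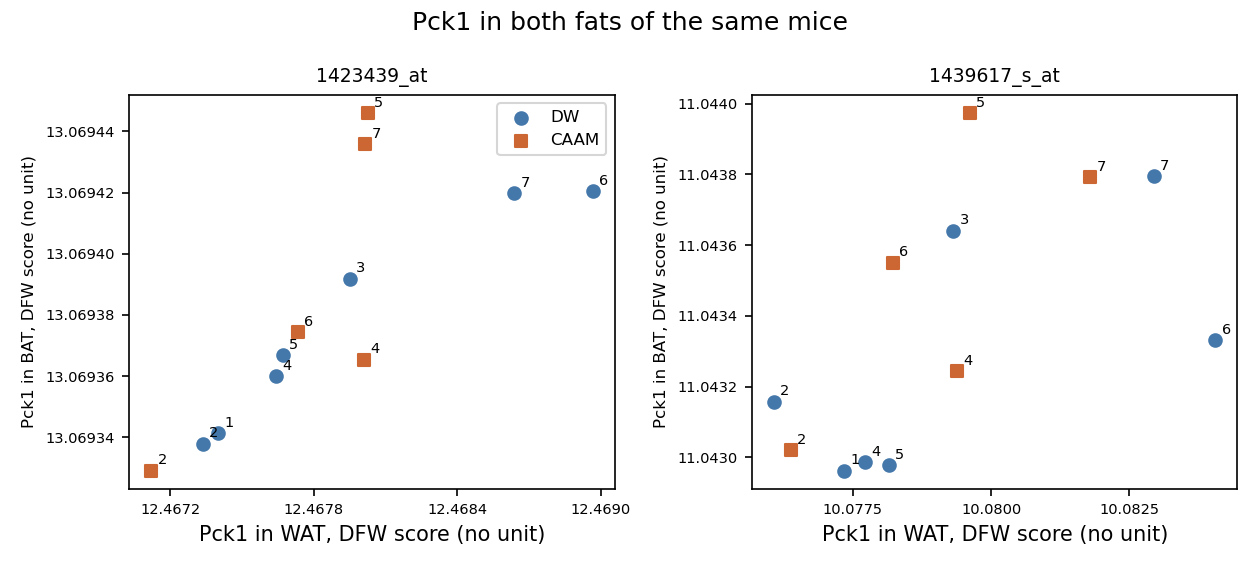
DFW score of Pck1 in WAT (x axis, no unit) against that in BAT (y axis, no unit) of the same mouse for the 2 bright probe sets, numbered by mouse, DW as circles and CAAM as squares. Mice low in WAT were low in BAT (r = 0.777 left, 0.586 right), and DW and CAAM mice are mixed along the trend.

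By the rule for likeness, the genes most like each member were taken in the tissue where its mean was highest, over 12 arrays. For Pck1 in BAT they were Arhgef3 (r = 0.935), Ccnb2 (0.932) and C1qa (0.924), a complement gene of macrophages. For G6pc in liver they were Fut8 (0.889), Phactr2 (0.887) and Ift74 (0.881). For Slc37a4 in liver Etfrf1 (0.949) led, with Sidt1 (0.878) and Prrc1 (0.874), for Fbp1 in liver Lgr5 (0.928), Mrpl51 (0.863) and E2f3 (0.856), and for Fbp2 in BAT Braf (0.860), Krtap6-3 (0.854) and Gm32633 (0.849). The SD of Fbp1 in liver was 7.65e-07 and lower than that of all but 0.6% of probe sets, so its neighbours rest on very small deviations.

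The wider pathway was read from lists of genes with known roles, 1 probe set per gene. As with the members, nearly all calls in these lists were of genes in the most variable 4504 probe sets, and with differences divided by the SD rank products called 0 in liver and WAT and 2 in BAT, Aqp7 and Gpd2, both lower. In liver, of 17 measured genes that bring carbon into the pathway, 3 (17.6%) were called higher and 0 lower, beside 1.62% and 1.18% of all probe sets: Tat, which breaks down tyrosine, Ldha, which interconverts lactate and pyruvate, and Got1, the cytosolic aspartate aminotransferase. All 3 were among the 5 of the list in the most variable probe sets. Tat scored 11.092 after CAAM and 11.076 in DW, a difference of 0.0157 ± 0.00618 (SE) with 5 of 5 CAAM mice above the DW median and a limma adjusted p of 0.713. Got1 differed by 0.00486 ± 0.00269 with 4 of 5 above. The calls of Tat and Got1 held without any 1 mouse. The Ldha difference, 0.000459 ± 0.000194, was 0 after quantile normalization and 0.000267 without CAAM mouse 5, and the call was lost without CAAM mouse 4, 5, 6 or 7. The list's median standardised difference was 0.0921, beside -0.0885 over all probe sets.

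Of 15 liver genes that oppose gluconeogenesis 1 (6.67%) was called in each direction, beside 1.62% of all probe sets called higher and 1.18% lower. Both were among the 5 of the list in the most variable probe sets. Pklr, the liver pyruvate kinase, was called lower with a difference of -0.000241 ± 0.000122 and 0 of 5 CAAM mice above the DW median. Without DW mouse 2 it was -0.000148 and not called. Pfkfb3, which makes the activator of glycolysis fructose 2,6-bisphosphate, was called higher by 0.00105 ± 0.000599, a call lost without CAAM mouse 4, 5, 6 or 7, with 0.000512 without mouse 6. Of 45 genes of transcriptional and hormonal control 2 (4.44%) were called higher and 7 (15.6%) lower, beside the same 1.62% and 1.18% of all probe sets. Of the 45, 23 were in the most variable probe sets, where 26.6% were called in either direction, and 8 of these 23 were called. Foxa2, a forkhead factor of hepatocytes, was called lower with a difference of -0.00211 ± 0.000688, and Cebpb, a factor that acts on the Pck1 promoter, higher by 0.00161 ± 0.000859 with 5 of 5 above. Onecut1 was called lower with a difference of -0.0180 ± 0.0120, or -0.00944 without CAAM mouse 5. Irs2, an adaptor of the insulin receptor, had a difference of -0.000137 ± 3.98e-05 with 0 of 5 above the DW median, and its call was lost without DW mouse 7. The lowest limma adjusted p in these lists was 0.674. Of 4 shared reversible steps and 6 genes of glucose release 0 were called, and the hepatic glucose transporter Slc2a2 differed by -5.26e-05 ± 1.67e-05 with 0 of 5 above and a limma adjusted p of 0.680. Of 8 genes of triglyceride assembly, Lpl was called higher, Agpat2 lower and Lpin1 in both directions. That was 25% in each direction, beside the same 1.62% and 1.18% of all probe sets. All 3 were among the 6 of the list in the most variable probe sets, and each of these calls was lost or changed without 1 of several mice.

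In WAT 1 of 17 carbon entry genes (5.88%) and 1 of 45 control genes (2.22%) were called lower, beside 1.94% of all probe sets. Of 8 genes of triglyceride assembly 1 (12.5%) was called higher, beside 0.822% of all probe sets. In the other lists 0 were called. All 3 genes were among the most variable probe sets, where 25.5% were called, and each call was lost without 1 of several mice. Gpt, which moves the amino group of alanine, had a difference of -0.00165 ± 0.00208, which was 8.39e-05 without CAAM mouse 7 and -0.00349 without CAAM mouse 2. Bhlhe40, a clock repressor, had one of -0.00166 ± 0.00109. Agpat2, an acyltransferase of triglyceride synthesis, was higher by 0.00254 ± 0.00141 with 5 of 5 CAAM mice above the DW median, and by 0.00109 without CAAM mouse 2. The calls of Gpt, Bhlhe40 and Agpat2 were lost in 7, 9 and 9 of the 12 runs that left out 1 mouse. All limma adjusted p were 0.9999. In BAT, 7 of 45 control genes (15.6%) were called higher and 2 (4.44%) lower, beside 1.2% and 2.07% of all probe sets. All 9 were among the 18 of the list in the most variable probe sets, where 31.4% were called. Irs2 scored 7.668 after CAAM and 7.578 in DW, a difference of 0.0903 ± 0.0257, and Sik1, a kinase induced by cAMP that restrains gluconeogenic transcription in liver, 7.489 and 7.463, a difference of 0.0263 ± 0.00815. All 5 CAAM mice were above the DW median for both, with limma adjusted p of 0.671 and 0.685. Klf15, a factor of amino acid catabolism, was called higher by 0.00232 ± 0.000854 and Nr4a1, an early response factor, by 0.149 ± 0.0758, each in 4 of 5. These 4 calls held without any 1 mouse.

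Of 17 BAT genes of carbon entry 0 were called higher and 3 (17.6%) lower, beside 1.2% and 2.07% of all probe sets. In this list 5 genes were in the most variable probe sets, where 31.4% were called, and 2 of these 5 were called. The glycerol channel Aqp7 had a difference of -0.000122 ± 3.06e-05, which turned to 0.000733 after quantile normalization and 0.000251 after centring. Got1 had one of -0.00229 ± 0.00176, or -0.00385 without CAAM mouse 2, -0.00152 without CAAM mouse 7 and -0.00139 without DW mouse 1, and the sign of Got2 (-0.000411 ± 0.00287) changed without CAAM mouse 4 or 6 or DW mouse 1. Of 15 genes that oppose gluconeogenesis 1 (6.67%) was called higher and 4 (26.7%) lower, beside the same shares of all probe sets. All 5 were among the 7 of the list in the most variable probe sets. Pfkfb3 was higher by 0.000826 ± 0.000366 with 5 of 5 above, a call lost without CAAM mouse 5. Those called lower were Pkm, Pfkp, Pfkm and the liver glycogen synthase Gys2. Pkm had a difference of -0.000229 ± 0.000146, which was 0.00232 after quantile normalization, 0.000144 after centring and -0.000109 without CAAM mouse 7, and its call was lost in 7 of the 12 runs that left out 1 mouse. Pfkp (-0.000939 ± 0.000701) was called in each of them, at -0.00160 without CAAM mouse 2 and -0.000575 without CAAM mouse 7. Pfkm (-0.00105 ± 0.00168) was 0.000120 after quantile normalization, 0.000118 without DW mouse 1, -0.00188 without CAAM mouse 2, -0.000601 without CAAM mouse 5 and -0.000684 without DW mouse 3, and its call was lost in 6 of the runs. Pfkm is the muscle isozyme of its enzyme, while Pkm is expressed in muscle and in other tissues. Muscle marker genes were called lower in the same arrays, and the part of muscle in these values was not tested. In BAT the median standardised difference was -0.306 for carbon entry, -0.391 for the opposing genes and 0.130 for the control genes, beside -0.0131 over all probe sets.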

How the data were processed

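Liver, WAT and BAT of 12 mice were hybridised to 36 arrays. The authors scored the scans with the DFW method in R with Bioconductor (R 2.7.2 per the labels), and deposited the resulting DFW score of each probe set on each array. Of its 45101 probe sets the 64 controls were dropped, and 34945 had a single gene symbol. The tests had been planned for log2-like values and were kept although the scores shrink differences between arrays by probe set. The number of arrays limits the precision.

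Members and gene lists were chosen with earlier results of these data known. The study's rank products test was rebuilt with python 3.11.15, numpy 2.4.6 and pandas 2.3.3. It used 35 mouse pairs and 100 permutations, or 20 in alternatives, and a probe set was called per direction below a false positive share of 0.05. limma 3.58.1 (R 4.3.3, lmFit and eBayes with prior degrees of freedom of 0.674 for liver, 0.497 for WAT and 0.625 for BAT) gave differences, SE and two-sided p adjusted over 45037 probe sets by Benjamini-Hochberg. Tissues and tissue-by-CAAM effects were fitted on differences within mice. Both tests were tested on simulated data.

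For counts over genes the probe set with the highest mean stood for a gene. Named genes were all members, up to 4 genes per list and tissue called by rank products in order of limma p (with none called, up to the 2 lowest p), the 3 genes most correlated with each member in its brightest tissue, and Alb, Lep and Ucp1. Of these, some are given here only within counts. The lists of multiciliated cells and mesothelium, the correlations in WAT, the 8 motifs searched and those in capitals, and the runs without 4 WAT or 4 BAT arrays were chosen after values or sequences were seen. Correlations are over 12 mice and have no p. Alternatives were quantile normalization, centring, no dim probe sets, a replicate block of mouse numbers, ranks of SD-scaled differences, limma as the test, trend and robust priors, unpaired tissues, and leaving out each mouse. Promoters were matched by symbol to RefSeq on GRCm38.p6. Figures were drawn with matplotlib 3.10.9.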

Additional observations from a re-analysis of the deposited data

Results flagged for a closer look

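In 1 of the 42 groups of member scores a mouse lay far from the others: Slc37a4 in the liver of CAAM mouse 6, at 12.1 the highest of its group, with a gap to the next mouse of 0.743 of the group's range. Chance gives such a gap in about 1 of 20 groups. Without this mouse the Slc37a4 difference in liver was -0.000174, and rank products called it lower.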

How the results depend on the processing

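Rank products called 3, 2 and 1 member probe sets in liver, WAT and BAT. With limma as the test and with ranks of differences divided by the SD it was 0 in each tissue, in liver 2 after quantile normalization, which lost G6pc (0.00125), in WAT 1 after quantile normalization and 1 without the 4 arrays that stood apart, and in BAT 0 without dim probe sets, since Fbp1 is dim, and 2 without the 4 muscle-rich arrays. With the mouse number as a replicate block the counts were 3, 1 and 1. The numbers are not shared mice (correlations of deviations -0.192 to 0.151). Leaving out 1 mouse gave 2 to 4 calls in liver, 1 to 2 in WAT and 1 to 2 in BAT, 7 in each tissue pair and 0 for each tissue-by-CAAM effect.

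Differences that changed sign were as follows, and the cause was not tested. Liver: after quantile normalization the third Pck1 probe set -1.38e-05 and Fbp2 -1.29e-05, after centring the third Pck1 probe set -0.000106, Fbp1 -0.000107 and Fbp2 -0.000106. WAT: the main Pck1 probe set 0.00442 after quantile normalization and 0.000154 after centring, the second Pck1 probe set 2.48e-05 after centring, and without the 4 arrays Fbp1 0.00302 and Fbp2 0.00464. BAT: after quantile normalization G6pc 0.000208, Fbp2 0.000752 and Slc37a4 0.00120, after centring 0.000370, 0.000346 and 0.000317, and with the replicate block Slc37a4 0.000109. Between tissues: G6pc WAT minus BAT -0.0634 after centring. For the CAAM effect, liver against BAT, Fbp2 was -0.000778 and -0.000452 after quantile normalization and centring. For WAT against BAT, quantile normalization gave the main Pck1 probe set 0.00213, G6pc -0.000124 and Slc37a4 -0.000503, and centring gave the third Pck1 probe set -3.98e-05.

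Among the member values, leaving out 1 mouse changed the sign or the direction of the call of these, given as ranges. Liver: G6pc 0.000391 to 0.00391 and the third Pck1 probe set -1.50e-05 to 3.06e-05. WAT: Fbp1 -0.0708 to 0.00518, Fbp2 -0.00860 to 0.00306, the main Pck1 probe set -0.000264 to 8.05e-06 and the second Pck1 probe set -0.000970 to 0.000490. BAT: the main Pck1 probe set -8.23e-07 to 2.84e-05 and Slc37a4 -0.000187 to 0.000189. For the CAAM effect, liver against WAT gave Fbp1 -0.00518 to 0.0708, Fbp2 -0.00306 to 0.00860 and the third Pck1 probe set -3.55e-05 to 1.01e-05, liver against BAT gave the third Pck1 probe set -1.97e-05 to 2.53e-05 and Slc37a4 -0.000265 to 9.56e-05, and WAT against BAT gave Fbp2 -0.00857 to 0.00308 and the second Pck1 probe set -0.00115 to 0.000227. Over all settings and member differences, 998 kept direction and call, 71 changed sign or the direction of the call, 19 lost a call and 4 gained a call. These counts pool CAAM differences, tissue pairs and tissue-by-CAAM effects. With limma as the test and with SD-divided ranks the difference was that of the main run, so its sign could not change. Between tissues nearly all probe sets passed and for tissue-by-CAAM effects none did, so those calls had little room to change. The 998 is therefore no measure of how stable the CAAM calls were.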
